A study of Rattus norvegicus with 20 samples.

Results

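Blood of the susceptible rats was compared before and 24 h after a single oral overdose of acetaminophen (APAP). The arrays were those whose titles name the most susceptible rats, 5 postdose (SA) and 5 predose (S), 10 of the 20 arrays of the series. Male Wistar rats, an outbred strain, received 1200 mg/kg APAP in a carboxymethyl cellulose sodium solution after a fast of 12 h, and the susceptible sub-group was the 5 of 35 dosed rats with the highest serum alanine transaminase at 24 h. The other 10 arrays hold the resistant sub-group, the 5 dosed rats with the lowest alanine transaminase, before and after the same dose.

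Predose blood was drawn from anesthetized rats, which then recovered for 1 week, whereas postdose blood came from rats that had been fasted, dosed and anesthetized with chloral hydrate. The labels give the retro-orbital plexus as the bleeding site of predose and postdose blood alike, whereas the study's methods give the inferior vena cava for postdose blood. No array holds vehicle-treated rats, so that the drug, the liver injury, the fast, the day and the site of bleeding cannot be told apart here. Red cells were lysed before RNA extraction, and RNA was labelled with a kit primed from the 3′ end and hybridized to Affymetrix Rat Genome 230 2.0 arrays, 1 array per sample. The same 5 rats gave the predose and the postdose samples, but the labels do not tie a predose number to a postdose number.

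APAP is a common analgesic that at high dose is oxidized by liver cytochromes P450 to a reactive quinone imine, which depletes glutathione, binds proteins and kills hepatocytes around the central veins. Dying hepatocytes release RNA, proteins and danger signals into blood, and neutrophils and monocytes are drawn from bone marrow and blood to the liver. Neutrophils carry receptors for chemokines, interleukin-1 and leukotrienes, natural killer cells carry granules of perforin and granzymes, and interferons switch on a shared set of antiviral genes in most leukocytes.

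The 10 arrays were similar in quality. Correlations of log2 values across probe sets were 0.923 to 0.936 within groups and 0.916 to 0.931 between them. The 3′ to 5′ ratio of beta-actin, a measure of RNA integrity on a log2 scale, was 0.874 ± 0.055 predose and 0.789 ± 0.097 postdose (mean ± SD, n = 5; exact 2-sided permutation p = 0.167). The level of the bacterial trp control probe sets, which have no target in rat RNA and were used here as a background level, was 51.6 ± 34.6 predose and 137 ± 38.4 postdose on the linear scale set to an array median of 1000 (exact permutation p = 0.0238, where 5 against 5 arrays allow no p under 0.00794), and the part of this difference in the results on dim probe sets was not tested. Of the marker lists for leukocytes, all 18 tested T cell genes, all 12 B cell genes and 14 of 16 neutrophil genes were above the highest trp control on all 10 arrays. So were 20 of 21 natural killer and cytotoxic, 12 of 17 monocyte and macrophage and 8 of 12 eosinophil, basophil and mast cell genes. All 13 platelet and all 14 erythroid genes were above it too, so that transcripts of white cells, platelets and red cells were all measured.

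Of 30452 probe sets tested, 910 differed between postdose and predose blood at a Benjamini-Hochberg adjusted p under 0.05 in limma (2.99%), 543 of them higher postdose (1.78%) and 367 lower (1.21%). At an unadjusted p under 0.05 there were 5080. The groups of 5 arrays did not overlap for 886 of the 910, against 2098 of all tested probe sets (6.89%). The 667 called probe sets with a single gene symbol stood for 590 genes. The gene lists below use 1 probe set per gene, the brightest. A separate fit and adjustment over such probe sets called 777 of 14054 (495 higher and 282 lower). Of these 777, the main fit called 504. List genes were called in the main fit, so that their counts are to be read beside the 504 of 14054. Whether any of them exceeds that share was not tested. Changes are given as differences of log2 intensity, postdose minus predose, so that a change of 1 is a doubling, and the median size of a called change was 0.96, while the median change over all tested probe sets was 0.01. In bulk blood RNA, more cells of a type and more RNA per cell cannot be told apart, and this holds for every change below.

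Leaving out any array but postdose array 4 left 272 to 526 called probe sets, and leaving out postdose array 4 gave 1033. With intensities as deposited, not scaled to a common median, 456 were higher and 490 lower (48.2% higher, against 59.7%).

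**Figure D1:**
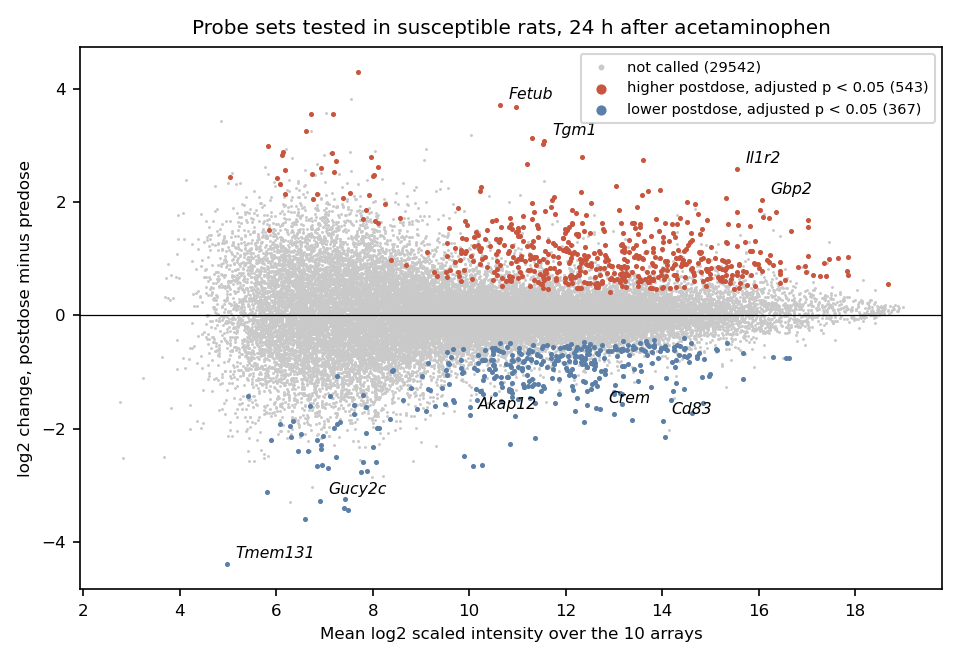
Each point is a probe set tested on the 10 arrays of susceptible rats, with its mean log2 scaled intensity on the horizontal axis and its log2 change, postdose minus predose, on the vertical axis. Red (543) and blue (367) points passed an adjusted p of 0.05, and for 815 of the 910 the higher group mean was at or above the array median, a log2 intensity of 9.97.

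The largest rises among well-expressed genes, whose higher group mean was at or above the array median, included several genes known from neutrophils and other myeloid cells, Cd33, Ltb4r, Il1r2, Cxcr2 and Cebpd among the 15. Tgm1, a protein-crosslinking transglutaminase, stood at log2 intensities of 9.41 to 10.68 predose and 12.18 to 13.72 postdose (change 3.08, SE 0.35, adjusted p = 0.00884). Every postdose array thus lay well above every predose array. Crispld2, a secreted protein known to bind bacterial lipopolysaccharide, rose from 9.2 to 10.21 predose to 14.30, 10.94, 14.77, 11.62 and 12.76 on postdose arrays 1 to 5 (change 3.13, SE 0.70, adjusted p = 0.0487). Its rise was steepest on postdose arrays 1 and 3, and it stayed past the threshold only when postdose array 2 or 4 was the array left out (adjusted p up to 0.108). Arg2, a mitochondrial arginase, rose by 2.20 (SE 0.43), Sema3g, a secreted semaphorin, by 2.18 (SE 0.29; 0.51 and not called on its other probe set) and Trim72, a membrane repair protein best known from muscle, by 2.09 (SE 0.38).

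Several receptors known from neutrophils were among the called rises. Cxcr2, the receptor of the neutrophil chemokines, was at 12.95, 13.60, 12.57, 12.64 and 12.47 predose and 15.54, 14.88, 15.62, 14.51 and 14.74 postdose (change 2.21, SE 0.29, adjusted p = 0.0112). Csf3r, through which granulocyte colony-stimulating factor acts, went from 15.22 ± 0.34 to 16.95 ± 0.24 (SD, n = 5; adjusted p = 0.00852 in limma). Ltb4r, the leukotriene B4 receptor, rose by 2.68 (SE 0.34, adjusted p = 0.0112), Ccr1, a receptor of inflammatory CC chemokines, by 2.0 (SE 0.28), and C5ar1, the receptor of the complement fragment C5a, by 1.14 (SE 0.19). Cxcr1, the other receptor of these chemokines, and Ltb4r2, a second leukotriene B4 receptor, were not called (changes 0.97 and -0.72).

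Of 16 tested neutrophil marker genes, 6 rose (Il1r2, Cxcr2, Csf3r, Itgam, S100a8 and S100a9), none fell, and the median change was 0.67. S100a8 and S100a9, subunits of calprotectin that already gave very bright signals, rose by 0.78 and 0.55 (adjusted p = 0.0362 and 0.0405). Pglyrp1, a bactericidal granule protein, showed 13.13 to 14.06 predose and 16.01, 14.89, 16.46, 14.39 and 15.06 postdose, but missed the threshold (adjusted p = 0.0565). The granule genes Camp, Mmp8 and Mmp9 were not called, with changes of -0.26, 0.47 and 0.56.

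Of 12 tested genes of the inflammasome and interleukin-1 list, 4 rose and none fell (median change 0.31). Il1r2, the decoy receptor that binds interleukin-1 without signalling, stood at 14.25, 14.54, 14.28, 14.58 and 13.68 predose and 17.77, 16.24, 17.48, 16.17 and 16.56 postdose (change 2.58, SE 0.34, adjusted p = 0.0112). Il1b, the cytokine itself, rose from 16.18 ± 0.50 to 17.86 ± 0.17 (adjusted p = 0.0123 in limma), Il1r1, its signalling receptor, by 1.19 and Il1rap, the receptor's partner chain, by 1.44. Il1r1 and Il1rap have further probe sets of lower signal, whose changes were -0.32 to -0.26 and were not called.

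Among Toll-like receptor and NF-kappaB genes, 2 of 18 rose and none fell (median change 0.10). Tlr4, the lipopolysaccharide receptor, was at 12.27, 11.86, 11.09, 10.98 and 11.47 predose and 13.59, 13.06, 14.48, 13.26 and 13.22 postdose (change 1.99, SE 0.33, adjusted p = 0.0189), and Myd88, the adaptor of these receptors, rose by 0.84. Of 23 tested inflammatory cytokine and chemokine genes, Il1b and Csf1, the macrophage growth factor, rose and none fell. Csf1 rose by 0.51 (adjusted p = 0.0481 in limma) and lost its call whichever single array was left out. Its other probe sets had changes of 0.04 and 0.66, not called, and 1.32, called. Of 16 eicosanoid genes, Ltb4r, Alox5ap and Lta4h rose and none fell. Alox5ap presents arachidonate to 5-lipoxygenase and Lta4h makes leukotriene B4. The 3 called genes were thus all of the leukotriene branch, with changes of 2.68, 1.30 and 0.70, whereas Ltb4r2 of that branch was not called. Lta4h passed narrowly (adjusted p = 0.0498 in limma) and stayed called in 1 of the 10 fits that left out a single array.

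Of 15 complement genes, Cfd (factor D, the protease of the alternative pathway), C5ar1 and Itgam (a chain of complement receptor 3) rose and Cd55, which protects cells from complement, fell from 14.05 ± 0.29 to 13.06 ± 0.18 (adjusted p = 0.0187 in limma), while its second probe set was not called (-0.17). Cfd was the clearest of them, with 11.12 to 12.57 predose and 13.67 to 14.87 postdose (change 2.29). Of 8 Fc receptor genes only the inhibitory Fcgr2b passed, with a rise of 1.2. Of 15 adhesion and migration genes, 5 rose, namely Ccr1, Itgam, Itgb7, Cxcr3 and Selp, and none fell.

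Genes that glucocorticoids are known to induce included 4 rises and no fall among 19 tested (median change 0.71). Cebpd, a myeloid transcription factor, was at 12.07 to 13.49 predose and 14.40 to 15.27 postdose (change 2.19, SE 0.29, adjusted p = 0.0112), and its second well-expressed probe set gave 2.13. Anxa1, the anti-inflammatory annexin, rose by 0.99 and Dusp1, a phosphatase that switches off stress kinases, by 0.71 (adjusted p = 0.0139 and 0.0473). The fourth was Il1r2.

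**Figure D2:**
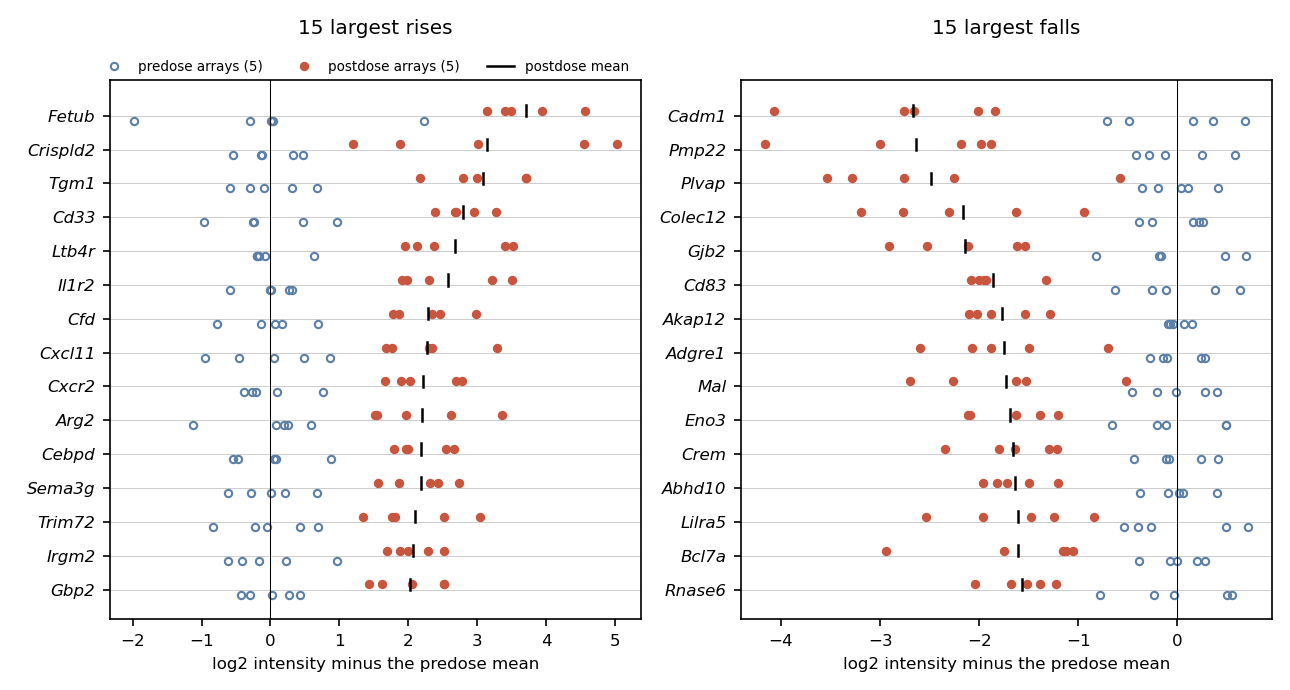
Log2 intensity of each array minus the gene's predose mean, for the 15 largest called rises (left) and falls (right) among probe sets with a single symbol whose higher group mean is at or above the array median. Open blue points are the 5 predose arrays, red points the 5 postdose arrays and black bars the postdose means. For all 30 genes the 2 sets of points do not overlap. The genes were picked from the called probe sets, of which 886 of 910 do not overlap, against 6.89% of all tested.

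The size of these rises differed between rats in a shared way. Postdose arrays 1 and 3 were the 2 highest of the 5 postdose arrays for 14 of the 15 largest rises, for 292 of the 543 called rises (53.8%), and for 13.3% of all tested probe sets. Without both of these arrays, 12 probe sets were called in all (6 higher and 6 lower), with 8 arrays left in the fit, and the 15 largest rises had changes of 1.64 to 3.34 with adjusted p of 0.0523 to 0.168 in limma. Of the 30 largest rises and falls, 10 rises and 5 falls were called whichever single array was left out.

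Of 21 tested genes of natural killer and cytotoxic cells, 11 rose, none fell and the median change was 0.85. Ncr1, an activating receptor of natural killer cells, stood at 11.77 to 12.05 predose and 13.73, 12.70, 14.00, 13.51 and 13.90 postdose (change 1.64, SE 0.23, adjusted p = 0.0130). The 5 predose arrays lay within 0.3 of each other, and the lowest postdose array was number 2. Among granule proteins, Gzmb rose by 1.62 (SE 0.19, adjusted p = 0.00886), Gzma by 1.29, Gzmk by 0.98, Gzmm by 0.80, Prf1, which encodes perforin, by 0.85, and Nkg7 by 0.96. The surface receptors Klrb1a and Klrd1 rose by 1.12 and 0.83, Il2rb, a chain of the interleukin-2 and interleukin-15 receptors, by 0.91, and the T-box factor Eomes by 1.13. Faslg missed the threshold (change 1.47, adjusted p = 0.0541), as did Klrc1 (1.77, adjusted p = 0.116), and S1pr5, an exit receptor of natural killer cells, had a change of -0.80 (adjusted p = 0.0901).

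These rises did not follow postdose arrays 1 and 3. The mean log2 value over the 21 genes was 13.51 to 13.89 predose and 14.43, 14.04, 14.62, 14.63 and 14.76 on postdose arrays 1 to 5. The T cell list had 0 of 18 genes called and a median change of -0.13.

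The interferon response list had the highest median change of the lists, 1.24 over 23 genes, but only 4 of them passed the test, Gbp2, Ifit3, Stat2 and Ifih1, all higher. Gbp2, an interferon-induced GTPase, was at 15.48, 15.31, 14.75, 14.62 and 15.07 predose and 17.57, 17.10, 17.56, 16.67 and 16.47 postdose (change 2.03, SE 0.27, adjusted p = 0.0112). Ifit3, which restrains translation of viral RNA, was at 17.05, 16.72, 15.73, 15.43 and 16.28 predose and 18.24, 17.65, 18.14, 17.32 and 17.68 postdose (change 1.56, SE 0.33, adjusted p = 0.0395). Predose arrays 3 and 4 were the lowest for both genes, and these 2 arrays also had the lowest mean over the 23 genes, 13.68 and 13.41, against 14.48 to 14.82 on the other predose arrays and 14.68 to 15.76 postdose.

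Outside the list, Irgm2, an immunity-related GTPase, rose from 14.28 ± 0.62 to 16.36 ± 0.33 (adjusted p = 0.0131 in limma) and Cxcl11, a ligand of Cxcr3, from 9.10 ± 0.72 to 11.38 ± 0.64 (adjusted p = 0.0237). Stat2, which carries the type I interferon signal to the nucleus, rose by 1.30 on its brightest probe set and by 1.10 on its other one (adjusted p = 0.0251 and 0.0453). The effectors Isg15 and Usp18 varied more between predose rats, 15.37 to 17.99 and 12.71 to 14.92, and did not pass, with changes of 1.30 and 1.88 (adjusted p = 0.234 and 0.0646). Rsad2, Mx1 and Irf7 had changes of 0.44, 0.19 and 0.39.

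Shown are promoters of 3 interferon-responsive genes with all 5 postdose arrays over the predose range, picked because they hold letters that interferon-activated factors bind. They are RefSeq sequences of GRCr8, around the transcription start, 5′ to 3′ on the gene's strand, with every match to GAAANNGAA on either strand, a core of the interferon-stimulated response element, in capitals.
Gbp2 (chr2:234005477-234005776, plus strand): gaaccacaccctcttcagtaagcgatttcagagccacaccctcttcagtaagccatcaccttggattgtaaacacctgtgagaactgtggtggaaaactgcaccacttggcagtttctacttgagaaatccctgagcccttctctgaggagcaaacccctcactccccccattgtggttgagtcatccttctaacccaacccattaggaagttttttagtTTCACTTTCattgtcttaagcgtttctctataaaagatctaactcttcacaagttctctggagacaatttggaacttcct
Ifit3 (chr1:241527076-241527375, plus strand): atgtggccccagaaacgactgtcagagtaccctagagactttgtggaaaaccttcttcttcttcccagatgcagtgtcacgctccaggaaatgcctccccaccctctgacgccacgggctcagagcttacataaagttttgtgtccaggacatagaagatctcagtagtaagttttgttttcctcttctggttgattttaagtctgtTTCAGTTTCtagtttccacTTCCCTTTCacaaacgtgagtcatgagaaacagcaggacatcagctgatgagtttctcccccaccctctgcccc
Irgm2 (chr10:42889720-42890019, plus strand): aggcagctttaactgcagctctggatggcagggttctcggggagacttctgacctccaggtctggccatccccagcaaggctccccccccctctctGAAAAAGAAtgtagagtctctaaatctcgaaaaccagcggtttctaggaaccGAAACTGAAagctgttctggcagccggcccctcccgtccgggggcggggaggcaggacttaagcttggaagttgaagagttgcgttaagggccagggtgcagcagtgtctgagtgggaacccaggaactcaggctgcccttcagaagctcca
The match in Gbp2 begins 30 bases before the start, those in Ifit3 43 and 24 bases before it, and those in Irgm2 154 and 102 bases before it. Of the 4 called list genes, Gbp2, Ifit3 and Ifih1 held a match in this window and Stat2 did not, and 9.71% of the 33469 promoter windows of the table hold at least 1. Of the risen genes named outside the list, Irgm2 held matches and Cxcl11 did not. A match is a description of the letters only.

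Of 24 tested genes of liver-secreted proteins, 3 rose, Fetub, Ahsg and Rbp4, none fell, and the median change was 0.90. Fetub, which encodes fetuin-B, was the largest rise of the well-expressed genes, with 8.80, 11.02, 8.49, 8.82 and 6.81 predose and 12.72, 12.18, 13.35, 11.93 and 12.28 postdose (change 3.71, SE 0.66, adjusted p = 0.0238). Predose array 5 was under its highest trp control (7.26), so that the change rests in part on a value at background. Fetub stayed called in 4 of the 10 fits that left out a single array (adjusted p up to 0.0659 in limma). Ahsg, which encodes fetuin-A, was at 6.28 to 7.34 predose, mostly at background, with 1 of 5 arrays above the trp controls, and at 9.56, 9.65, 10.87, 8.31 and 8.72 postdose, at least 4.21-fold higher (adjusted p = 0.0205). Rbp4, the retinol carrier, was under the highest trp control on every predose array and was at 9.32, 8.43, 10.88, 7.22 and 8.95 postdose, at least 3.08-fold higher (adjusted p = 0.0271), with 4 of 5 postdose arrays above it. These bounds set the arrays of the dimmer group, here predose, at their highest trp control where they were under it, and leave the brighter group as measured.

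Alb, which encodes albumin, missed the threshold. Alb was at 8.27, 8.72, 8.65, 7.96 and 8.69 predose and 13.25, 10.08, 13.90, 9.27 and 11.66 postdose, a change of 3.17 with an SE of 0.83 (adjusted p = 0.0784). All 5 postdose arrays were above all predose arrays, by little on array 4 and by far on arrays 1 and 3. The mean over the 24 genes followed the same order, 9.69, 8.64, 10.38, 8.62 and 9.09 on postdose arrays 1 to 5 against 7.99 to 8.32 predose. Of the liver enzyme list, 0 of 12 genes were called (median change 0.27), among them Cyp2e1, the main cytochrome P450 of APAP oxidation, with a change of 0.83 (adjusted p = 0.452). Only 7 of 24 liver secreted and 7 of 12 liver enzyme genes were above the trp controls on all 10 arrays, and whether the liver transcripts came from hepatocyte RNA in plasma or from blood cells was not tested. Arrays 1 and 3 were thus highest both for these transcripts and for most of the myeloid rises, and whether these are linked was not tested.

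**Figure D3:**
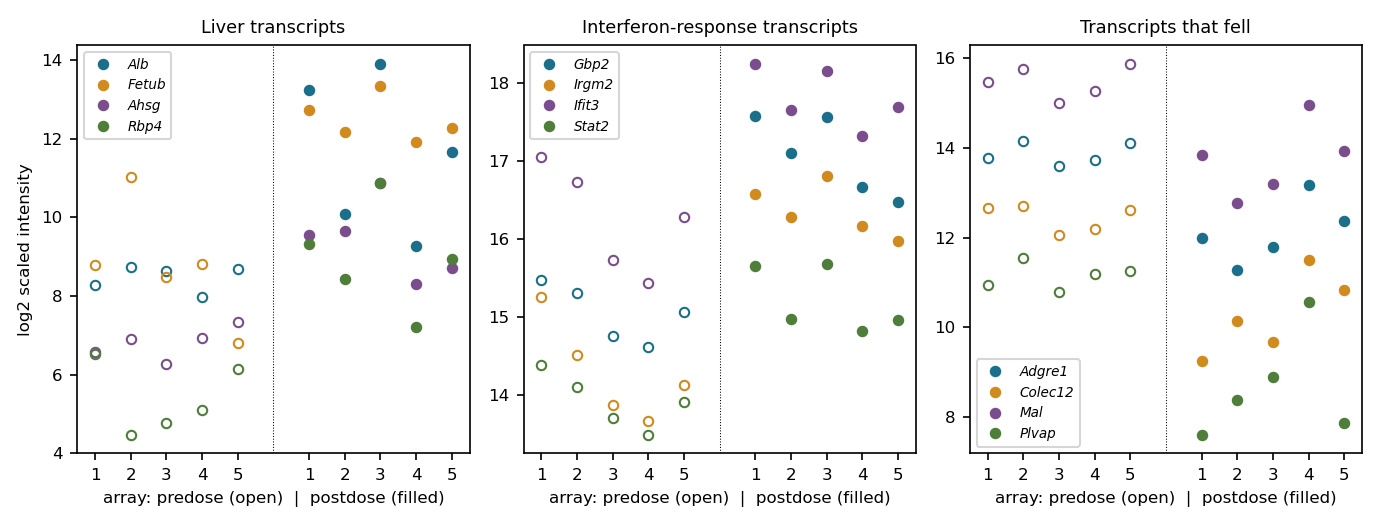
Log2 scaled intensity on each of the 5 predose (open) and 5 postdose (filled) arrays for 4 transcripts of the liver, 4 of the interferon response and 4 that fell. Array numbers do not join a predose to a postdose sample. Alb and Rbp4 are highest on postdose array 3, Ifit3 is lowest on predose arrays 3 and 4, and Adgre1, Colec12, Mal and Plvap fell least on postdose array 4.

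The largest falls among well-expressed genes included several of antigen-presenting and other mononuclear cells. Cd83, a surface protein of mature dendritic cells, was at 14.31, 15.33, 14.83, 15.57 and 14.69 predose and 12.99, 13.01, 12.86, 13.62 and 12.95 postdose (change -1.86, SE 0.26, adjusted p = 0.0123). Adgre1, a surface receptor used as a macrophage marker, was at 13.59 to 14.15 predose and at 11.99, 11.27, 11.79, 13.17 and 12.37 postdose (change -1.75, SE 0.32, adjusted p = 0.0255). Colec12, a scavenger receptor with a collectin domain, fell by 2.17, Lilra5, a leukocyte immunoglobulin-like receptor, by 1.61, and Rnase6, an antimicrobial ribonuclease of monocytes, by 1.57. Postdose array 4 was the highest postdose array for each of these 5 genes.

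Postdose array 4 was the highest postdose array for 11 of the 15 largest falls and for 218 of 367 called falls (59.4%), against 29.9% of all tested probe sets. Mal, a membrane raft protein, was at 15.01 to 15.87 predose and at 13.85, 12.78, 13.21, 14.96 and 13.94 postdose, so that array 4 stood just under the predose range (change -1.73, adjusted p = 0.0453). Plvap, a protein of endothelial diaphragms, behaved alike (7.61, 8.39, 8.89, 10.57 and 7.86 postdose, 10.79 to 11.55 predose; change -2.48). Cadm1, an adhesion molecule, fell by 2.67 and Pmp22, best known from myelin, by 2.64, and their other probe sets were not called (-1.07 and -1.01). Gjb2, a gap junction protein, fell by 2.14 and Eno3, a muscle enolase, by 1.69. Bcl7a, a chromatin remodelling subunit, fell by 1.6 (adjusted p = 0.0465), with -0.74 and no call on its other probe set. Abhd10, a mitochondrial hydrolase, fell by 1.64 with little spread (13.46 ± 0.28 to 11.81 ± 0.30, adjusted p = 0.00884 in limma).

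Of 17 tested monocyte and macrophage genes, Cd33 rose, Adgre1 fell and the median change was 0.13. Cd33, a sialic acid-binding lectin of myeloid cells, was at 10.71, 11.91, 10.69, 11.42 and 9.98 predose and at 13.89, 13.64, 14.22, 13.33 and 13.62 postdose (change 2.80, SE 0.34, adjusted p = 0.0101). Of the 17 changes, 10 were above 0 and 7 below. Csf1r and Cx3cr1, receptors of monocytes, had changes of -0.89 and -0.78 (adjusted p = 0.0655 and 0.0951 in limma). Fcgr1a and Ccr2, of the same list, had changes of 0.98 and 0.50 (adjusted p = 0.0882 and 0.364 in limma). None of 8 MHC class II genes was called, all 8 changes were below 0 and the median was -0.34, with a mean over the genes of 15.60, 15.25, 15.22, 16.27 and 15.56 postdose against 15.88 to 16.03 predose, so that array 4 alone was above the predose range.

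Among the other blood cell lists, few genes passed. Of 12 B cell genes, Blk, a kinase of the B cell receptor, fell from 12.71 ± 0.14 to 11.63 ± 0.35 (adjusted p = 0.0170 in limma) and Vpreb3, a pre-B cell receptor protein, from 12.29 ± 0.18 to 11.75 ± 0.12 (adjusted p = 0.0467). The median change of the B cell list was -0.51, and 11 of its 12 changes were below 0. Of 13 platelet and megakaryocyte genes, Selp, the adhesion protein P-selectin, rose by 0.69 and no other gene passed (changes of 0.08 to 0.33). The eosinophil, basophil and mast cell list and the erythroid and reticulocyte list had 0 of 12 and 0 of 14 genes called, with median changes of 0.19 and 0.01.

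**Figure D4:**
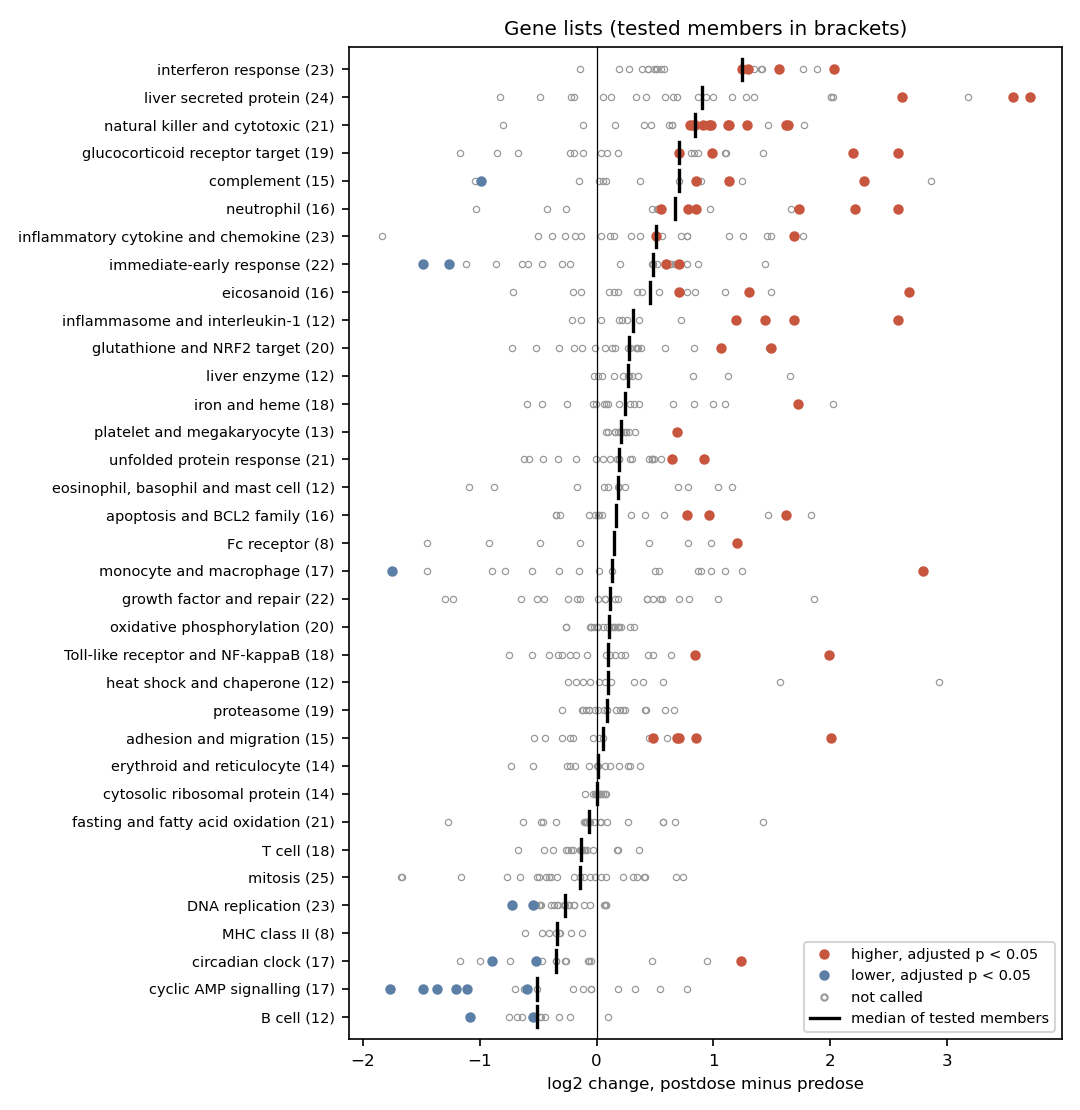
Log2 change, postdose minus predose, of the tested members of 35 gene lists, ordered by the list's median (black bar), with the number of tested members in brackets. Red and blue points passed an adjusted p of 0.05. The interferon, liver secreted protein and natural killer lists have the highest medians (1.24, 0.90 and 0.85) and the cyclic AMP and B cell lists the lowest (both -0.51).

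Of 17 tested genes of cyclic AMP signalling, 6 fell, Crem, Pde4b, Pde4d, Akap12, Nr4a1 and Sik1, none rose, and the median change was -0.51. Cyclic AMP activates protein kinase A and the factor CREB, and several of these genes encode the brakes that CREB turns on. Akap12, a scaffold of protein kinase A, was at 11.04, 10.81, 10.85, 10.80 and 10.96 predose and 9.35, 9.61, 8.87, 8.79 and 9.01 postdose (change -1.77, SE 0.17, adjusted p = 0.00738). The predose arrays agreed within 0.3, and the groups stood more than 1 apart. Crem, a repressor and activator of CREB targets, has 6 tested probe sets, all lower postdose, 5 of them called, and on the one with the largest change it was at 13.10, 13.78, 13.43, 13.95 and 13.45 predose and 12.33, 11.20, 11.91, 12.25 and 11.74 postdose (change -1.66, SE 0.24, adjusted p = 0.0136).

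The phosphodiesterases Pde4d and Pde4b, which break cyclic AMP down, fell by 1.37 and 0.59 (adjusted p = 0.0112 and 0.0381), and all 3 probe sets of Pde4d were called. Sik1, a kinase that restrains CREB coactivators, fell by 1.10 (adjusted p = 0.0306), with -0.38 and no call on its other probe set. Nr4a1, an orphan nuclear receptor, was at 14.31 to 15.25 predose and 13.47, 12.70, 13.07, 14.46 and 13.54 postdose (change -1.49, adjusted p = 0.0439), where postdose array 4 overlapped the predose range.

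Promoter windows of Crem, Nr4a1 and Sik1 are shown because these called genes are known targets of CREB and the letters it binds can be read in them. They have the same source and layout, with every match to TGACG on either strand, the half-site of the cyclic AMP response element, in capitals, and the full element TGACGTCA counts as 2 overlapping half-sites.
Crem (chr17:58985240-58985539, plus strand): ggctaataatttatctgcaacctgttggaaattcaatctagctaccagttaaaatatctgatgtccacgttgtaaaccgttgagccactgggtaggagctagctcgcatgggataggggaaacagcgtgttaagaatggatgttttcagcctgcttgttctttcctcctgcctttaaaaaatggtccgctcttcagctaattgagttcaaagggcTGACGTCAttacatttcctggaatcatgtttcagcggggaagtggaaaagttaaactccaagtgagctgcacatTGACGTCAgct
Nr4a1 (chr7:134259888-134260187, plus strand): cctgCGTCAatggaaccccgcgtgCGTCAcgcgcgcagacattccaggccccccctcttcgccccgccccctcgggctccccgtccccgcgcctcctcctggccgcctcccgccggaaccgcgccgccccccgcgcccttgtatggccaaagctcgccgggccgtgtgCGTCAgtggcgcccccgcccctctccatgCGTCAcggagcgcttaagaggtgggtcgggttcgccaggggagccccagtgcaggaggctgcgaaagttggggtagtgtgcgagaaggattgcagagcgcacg
Sik1 (chr20:9958597-9958896, minus strand): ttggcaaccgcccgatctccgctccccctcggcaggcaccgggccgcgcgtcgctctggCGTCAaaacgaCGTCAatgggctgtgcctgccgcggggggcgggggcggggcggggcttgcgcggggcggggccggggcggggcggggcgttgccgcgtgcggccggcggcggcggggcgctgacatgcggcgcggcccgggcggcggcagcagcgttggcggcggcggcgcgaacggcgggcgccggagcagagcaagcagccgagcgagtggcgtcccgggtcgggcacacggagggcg
RefSeq gives Crem 3 start sites, and the window shown is that with the most matches, 2 full elements that begin 35 bases before and at base 40 after the start. Nr4a1 has half-sites that begin 246, 226, 82 and 53 bases before the start and Sik1 has them 191 and 180 bases before it. In the other called genes of the list, 2 of the 5 windows of Pde4d and none of those of Pde4b and Akap12 held a half-site. A half-site is found in 21.2% and the full element in 1.83% of all windows of the table, and no site in these genes was measured here.

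Of 22 immediate-early genes, Klf6 and Dusp1 rose (0.60 and 0.71) and Nr4a1 and Nr4a2 fell (-1.49 and -1.26), with a median change of 0.48. Of 17 circadian clock genes, Per2 rose, from 11.90 to 12.86 predose to 13.44 to 14.09 postdose (change 1.24, SE 0.23, adjusted p = 0.0258), while its fellow repressor Cry1 and the receptor Nr1d2 fell by 0.52 and 0.89 (adjusted p = 0.0380 and 0.0330). Per1 had a change of -1.17 (adjusted p = 0.0662). The hour of the day at which each blood was drawn is not given in the sources used here.

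Of 20 glutathione and NRF2 target genes, 2 rose and none fell (median change 0.28). Slc7a11, the cystine importer that feeds glutathione synthesis, was at 10.19, 10.57, 9.97, 10.18 and 10.42 predose and 12.02, 11.56, 12.11, 11.47 and 11.63 postdose (change 1.49, SE 0.17, adjusted p = 0.00884), and Nqo1, a quinone reductase, rose by 1.06 (adjusted p = 0.0306). Gclc and Gclm, the subunits of the enzyme that starts glutathione synthesis, had changes of -0.32 and -0.72 and were not called. Of 21 unfolded protein response genes, Pdia4 and Sdf2l1, helpers of folding in the endoplasmic reticulum, rose by 0.92 and 0.65 and none fell. Of 12 heat shock genes none was called, although Hspb1 was at 6.75 to 8.46 predose and 11.59, 9.25, 12.74, 8.54 and 10.73 postdose (change 2.93, adjusted p = 0.0797), again highest on arrays 1 and 3.

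Of 16 apoptosis genes, Fas, the death receptor, Casp8, its caspase, and Bid, a substrate of that caspase, rose by 1.62, 0.96 and 0.77 (adjusted p = 0.0175, 0.0258 and 0.0425), and none fell. Fas has 2 dimmer probe sets that were not called, with changes of 0.47 and -0.37. Of 18 iron and heme genes, Steap4, a metalloreductase of inflamed tissue, rose by 1.72 (adjusted p = 0.0112). Its predose values were 13.26 to 14.24 and its postdose values 14.76 to 15.55. Hp, the hemoglobin scavenger haptoglobin, missed the threshold (change 1.0, adjusted p = 0.0557). None of 21 genes of fasting and fatty acid oxidation was called (median change -0.06), and none of 22 growth factor and repair genes was called (0.11).

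Of 23 DNA replication genes, Rfc3, of the clamp loader, and Lig1, the replicative ligase, fell by 0.72 and 0.54 and none rose (median change -0.27). The second probe set of Lig1 was not called (-0.15). None of 25 mitosis genes was called (-0.14). None of 14 cytosolic ribosomal protein, 20 oxidative phosphorylation and 19 proteasome genes was called, with median changes of 0.01, 0.11 and 0.09.

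Of the 6 largest rises irrespective of signal, Fetub, Crispld2 and Tgm1 are described above, while the other 3 and all 6 of the largest falls had at least 4 arrays of 1 group under the trp controls. Gucy2c, a guanylate cyclase best known from the intestine, was at 8.77, 8.73, 8.03, 8.78 and 8.40 predose and under the trp controls on all postdose arrays, at least 2.18-fold lower (adjusted p = 0.00441). Cyp2d2, a cytochrome P450, was at least 3.11-fold lower, Stac, an adaptor protein, at least 3.32-fold and Ackr3, a chemokine scavenger, at least 1.98-fold, each under the trp controls on all 5 postdose arrays. Cadm3, an adhesion protein, was at least 2.89-fold lower, with 1 postdose array above these controls. Kcnip2, a potassium channel partner, was under them on all predose arrays and at least 1.89-fold higher postdose. Further probe sets of Kcnip2 had changes of 0.73 and 0.45 and were not called. Tmem131 had the largest change of all genes named here, -4.40 on a probe set of 2.77 ± 0.62 postdose, but its brightest probe set fell by only 0.59 (adjusted p = 0.0444) and 2 others had changes of 1.29 and 0.01, so that no fold is given for the dim one.

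Of the 10 candidate genes that the study chose on these arrays, 3 passed here on the probe set the study used, Gprin1, Sox11 and Bmp2. The study chose them by their predose difference between the sub-groups and by contrasting the changes of both sub-groups. A gene could thus be chosen with little change in susceptible rats, and missing the threshold here does not test that choice. Gprin1, a regulator of neurite growth, was at 5.18, 4.21, 5.36, 6.52 and 7.35 predose, with 1 array above the trp controls, and at 9.25, 8.72, 7.77, 8.35 and 8.82 postdose, at least 2.34-fold higher (adjusted p = 0.0315). Sox11, a developmental transcription factor, and Bmp2, a bone morphogenetic protein, were lower (adjusted p = 0.0482 and 0.0419), Sox11 by at least 1.58-fold with overlapping groups and Bmp2 by at least 1.80-fold, being under the trp controls on all postdose arrays. A second, uncalled probe set of Bmp2 had a change of -1.23. Incenp, Sbf1, Hrg, Myl7, Mmp12 and S100b missed the threshold with changes of 2.41, 1.70, 2.0, -2.28, 1.86 and 0.30 (adjusted p of 0.0646 to 0.771), and so did the probe set of Rpgrip1, which carries no single symbol here (-0.31, adjusted p = 0.868). Brighter probe sets of Incenp and Sbf1 had changes of -0.01 and 0.17. These genes were selected on the same samples, so that their changes are no independent evidence. The study's real-time PCR of predose blood from an independent set of rats was not examined here.

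No gene's change was shown to differ from that in the resistant rats. In the fit over 20 arrays, 0 probe sets had a difference in change, susceptible minus resistant, at an adjusted p under 0.05 in limma (smallest adjusted p = 0.158), and 2109 had an unadjusted p under 0.05. The exceptions on leaving out an array were 2 probe sets without resistant predose array 1 and 1 without susceptible postdose array 1. Of the 910 called probe sets, 830 had a change of the same sign in resistant rats and 264 an unadjusted p under 0.05 for the difference in limma. The 910 were picked by their susceptible change, which is part of the difference, so that the 264 are no independent evidence. The share of equal signs over all tested probe sets was not computed. The resistant changes were 1.5 for Csf3r, 3.48 for Cd33, 1.70 for Ncr1, -1.42 for Akap12 and -2.70 for Crem, of the same sign as in susceptible rats.

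Gbp2 changed by -0.13 in resistant rats (difference 2.16, SE 0.36, unadjusted p = 1.38e-05, adjusted p = 0.158 in limma), Irgm2 by 0.12 (difference 1.95, adjusted p = 0.195), Stat2 by -0.23 (1.53, adjusted p = 0.208) and Tlr4 by -0.07 (2.06, adjusted p = 0.195). The interferon list's median change was -0.61 in resistant rats. Among liver transcripts, Fetub rose alike in the sub-groups (3.69 in resistant rats, difference 0.02), whereas Alb changed by -0.54, Rbp4 by -0.03 and Ahsg by 0.29 there, with adjusted p of 0.431 to 0.567 for the difference.

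**Figure D5:**
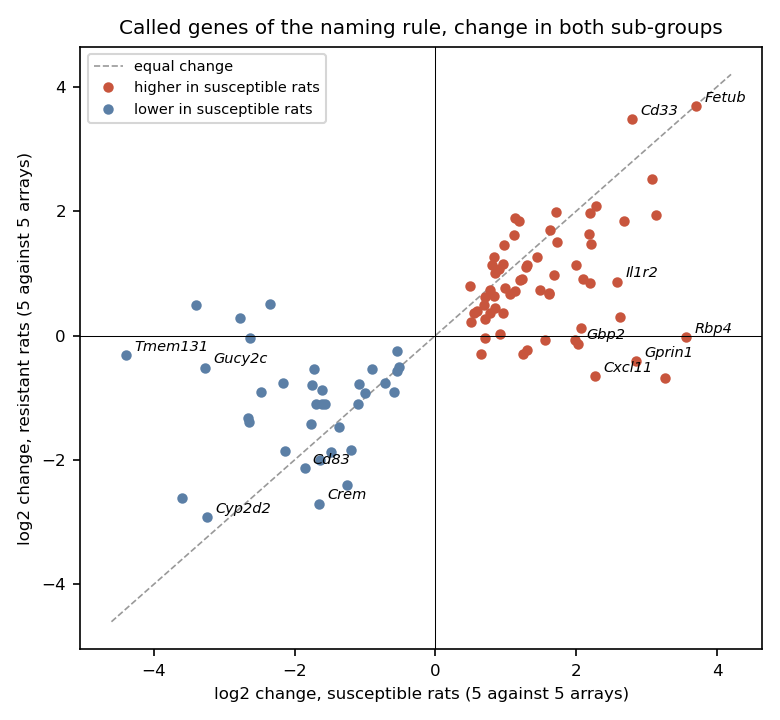
Log2 change, postdose minus predose, in susceptible rats (horizontal axis) and in resistant rats (vertical axis) for 99 called probe sets of the naming rule, each change from 5 against 5 arrays. The dashed line marks equal change. Fetub (3.71 and 3.69) lies on it, Rbp4, Gbp2 and Cxcl11 lie near or below 0 on the vertical axis, and for none was the difference past an adjusted p of 0.05.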

How the data were processed

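The series holds 20 Affymetrix Rat Genome 230 2.0 arrays of blood RNA, of which the 10 of susceptible rats were analysed here; the other 10 entered only the test of the difference in change and the alternative fit of all arrays. The authors deposited 1 linear intensity per probe set and array, with medians of 193 to 209 on the 10 arrays, and the software behind these signals is not given in the sources used here. The 57 control probe sets were left out, signals were scaled so that every array had a median of 1000, as the study's methods state, and converted to log2, and 590 of 31042 probe sets under 100 on all 10 arrays were dropped.

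Tests used lmFit and eBayes of limma 3.58.1 (R 4.3.3) without a replicate block, with Benjamini-Hochberg adjustment over all tested probe sets and a threshold of 0.05. Array measures were compared with exact 2-sided permutation tests. The difference in change was an interaction in 1 fit of 4 groups. All p-values measure the spread between the 5 arrays of a group, so that precision is set by how many arrays there are. The fit was tested on simulated data.

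Symbols came from the platform's annotation (20826 probe sets with 1 symbol, 436 with several, 9780 with none, 20758 of them found in the RefSeq table). Of 683 genes in 36 lists, 574 were on the array under 1 symbol and 568 were tested, each by its probe set of highest mean signal; 3 entries that are older names of genes already in their list were counted once. Promoter windows are RefSeq sequences of GRCr8.

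Named genes were the 15 largest called rises and falls with a higher group mean at or above the array median, the 6 largest irrespective of signal, the called members and the 2 brightest of each list, and the study's 10 candidate genes. Other list members printed with values that missed the threshold were chosen after their values had been seen. The arrays, lists, rule and tests were chosen with earlier results of these data known. The highest trp control of each array, a log2 value of 7.09 to 7.89, was taken as background, and a bound of "at least" sets the arrays of the dimmer group at that level where they were lower and leaves the brighter group as measured. Alternatives were quantile normalization, values as deposited, other filters, other fits, the methods' Welch test, 1 probe set per gene and leaving out arrays. Leaving out postdose arrays 1 and 3 together was chosen after seeing the data. Plots were made in Python 3.11.15 with matplotlib 3.10.9.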

Additional observations from a re-analysis of the deposited data

Results flagged for a closer look

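Values of single arrays were compared within each group of 5 by Dixon's gap ratio, and 8 of 264 groups of values had an array past Dixon's critical value of 0.71, where chance alone flags about 1 in 20 groups. Postdose array 4 was high for Cd83 (log2 intensity 13.62, the others 12.86 to 13.01) and postdose array 2 was low for Gzmk (16.00, the others 16.68 to 16.92). Postdose array 1 was high for S100a9 (19.23, the others 18.82 to 18.94). Predose array 2 was high for Ltb4r (10.50, the others 9.67 to 9.78), Rfc3 (12.44, the others 12.13 to 12.21) and Steap4 (14.24, the others 13.26 to 13.44). Predose array 4 was low for Cyp2d2 (8.02, the others 9.19 to 9.39). Postdose array 5 was low in the median level of the trp controls (69.0 on the linear scale, the others 143 to 161). No difference in change between the sub-groups passed an adjusted p of 0.05.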

How the results depend on the processing

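Of the 99 called probe sets that the naming rule picked, 35 stayed past the threshold whichever single array was left out. Those of Csf1, Cxcr3, Dusp1 and Sdf2l1 stayed past it in none of these fits. No named gene called in the main fit or in an alternative had opposite directions in the 2. Turns of direction in genes called in neither were not counted. The counts depended on the setting. They were 2303 called probe sets (1310 higher, 993 lower) when only those at or above 1000 on at least 5 arrays were tested, 2062 (1192 and 870) with all 20 arrays in 1 fit, 2069 (1215 and 854) with a trended and robust variance, 582 (352 and 230) with the methods' Welch test after Benjamini-Hochberg, and 617 higher and 608 lower after quantile normalization. Array weights, a filter on the trp controls, unscaled or unfiltered values, 1 probe set per gene and quantile normalization gave 777 to 1275. The methods' Welch test at their unadjusted threshold with a change of at least 2-fold called 983, of which 421 were among the 910. Leaving out each array in turn gave 272 to 1033 called probe sets, 180 to 500 higher and 91 to 533 lower. The count was lowest without postdose array 3 and highest without postdose array 4, and it was 289 to 526 without any of the other arrays. Without postdose arrays 1 and 3 together it was 12 (6 higher and 6 lower). Some of these fits held fewer probe sets or arrays, and the cause of the differences was not tested. The same-numbered arrays did not deviate together (correlations of -0.0309 to 0.0484, 2 of 5 arrays closest to their own number). With 5 arrays per group this does not settle whether equal numbers mark the same rat. A fit with a replicate block, which takes them as pairs, called 1 probe set (1 higher and 0 lower). Between susceptible and resistant rats, 0 to 2 probe sets differed in change on leaving out an array, and 0 with the block or after quantile normalization. Precision is limited by 5 arrays per group, and on dim probe sets by the trp controls.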
